A study of Mus musculus with 6 samples.

Results

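The CC and CXC chemokine genes measured here were those whose symbol is Ccl or Cxcl followed by a number and at most 1 letter. They were read from probe sets that carry exactly 1 gene symbol, with the probe set of the highest mean over the 6 arrays kept for each gene. This gave 32 chemokine genes, 19 of the CC and 13 of the CXC class, of 22180 genes in all. Each array was a GeneChip Mouse Gene 2.0 ST array hybridized with RNA pooled equally from 10 mice, and 1 array was run per diet group and organ. The mice were male C57BL/6J mice bought at 4 weeks of age and fed a lard-enriched high-fat diet for 92 days. In the BF group the dietary fiber came from flour of Beau Fiber, a hulless barley rich in β-glucan, and in the control group it came from cellulose. Both groups carried the same high-fat background, and no group on a low-fat diet was analysed. Ileum, liver and epididymal adipose tissue were compared between the groups. The study asked how the barley flour alters gene expression in these organs of obese mice.

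Chemokines are small secreted proteins that bind G protein-coupled receptors and steer the migration of leukocytes. The 2 classes are named for the first cysteines of the protein, which stand next to each other in CC chemokines and have 1 residue between them in CXC chemokines. Some members are made constantly in barrier and lymphoid tissue, where they place lymphocytes, and others are induced by microbial products, TNF, IL-1 or interferon and draw monocytes, neutrophils or T cells. In the fat of obese mice, ligands of the receptor CCR2 are known for drawing monocytes that become macrophages. In the gut wall, CXCL13 made by stromal cells places B cells in lymphoid follicles.

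A group was a single array of a pool, so the arrays measured no spread between mice. No array difference could be tested and no standard deviation is given. Whether a difference was shared by the mice of a pool cannot be read from these arrays. The deposited values were on the log2 scale after robust multichip analysis, in which a difference of 1 is a doubling. A gene was called higher in the BF group above 1.3 fold (a log2 difference of 0.38) and lower below 0.77 fold (a log2 difference of -0.38), the thresholds of the study. A fold is given only where both arrays lay at or above the median of all genes on that array, and the log2 difference elsewhere, since low signal holds little above background. The median of all 22180 genes was 4.98 on the BF and 4.97 on the control array of the ileum. It was 3.87 on each liver array, and 4.65 on the BF and 4.63 on the control array of adipose tissue. Markers of each organ were present where they belong. The mean log2 value of 8 ileum epithelium genes was 11.23 in the BF and 11.29 in the control ileum, that of 8 hepatocyte genes was 11.60 on both liver arrays, and that of 8 adipocyte genes was 10.52 in the BF and 10.31 in the control adipose tissue. Labels of the adipose arrays speak of adipocytes, but markers of macrophages and endothelium were also measured at high levels there. A source label of the BF adipose array names the cellulose diet while its title, description and dietary fiber entry name barley, and the array was taken as BF. The control adipose array stood apart in 1 respect. Of 10 epididymis genes, 7 were lower in BF adipose tissue, with a range of 2.77 to 4.81 on the BF array and 2.72 to 9.59 on the control array, and the 4 of them that reached a log2 value of 5 did so on the control array only. The part of this in the adipose results was not tested, and every adipose value below rests on that array pair.

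The direction in which chemokine genes differed varied by organ. In the ileum, 7 of 32 were higher in the BF group, among them Cxcl13, Cxcl9, Cxcl10, Cxcl5 and Ccl3, and 1, Ccl2, was lower, on arrays that also differed in adipocyte markers (4 of 8 lower in the BF group). In adipose tissue, 8 of 32 were lower in the BF group, among them the monocyte ligands Ccl2, Ccl7 and Ccl8, and 1, Cxcl13, was higher. In the liver, 2 were higher and 2 were lower. Cxcl13 was the single member called in all 3 organs, and it was higher in each.

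**Figure D1:**
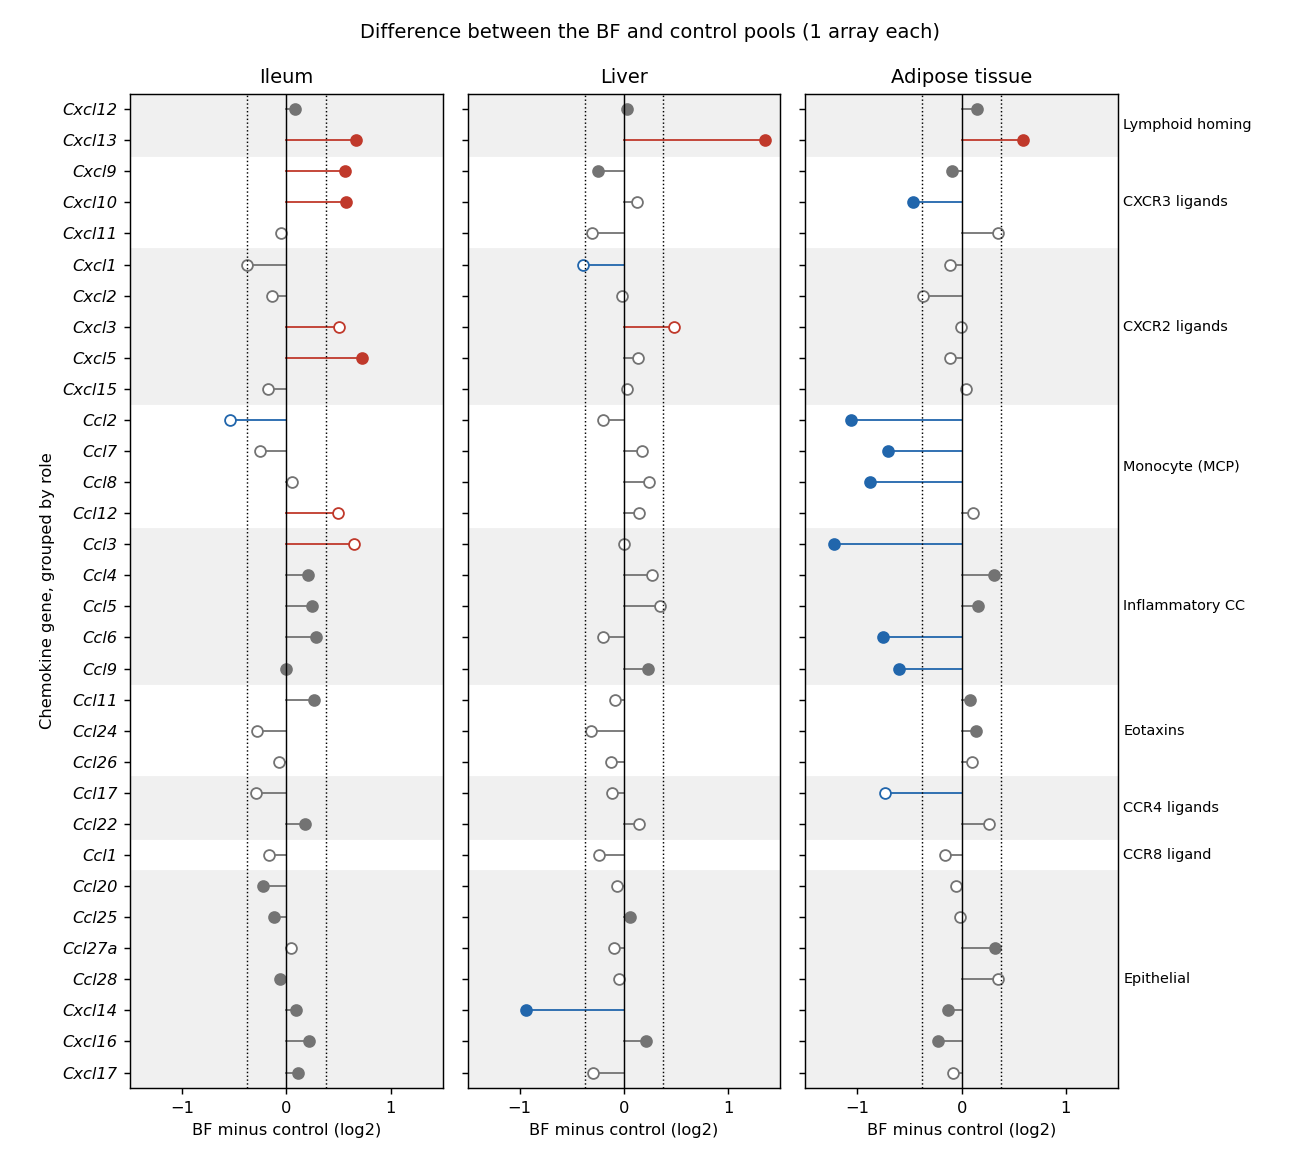
Log2 difference between the BF and control arrays for each chemokine gene, grouped by role, in 3 organs. Red and blue mark genes above 1.3 fold and below 0.77 fold (dotted lines), and filled points mark a log2 value of at least 5 on either array. Cxcl13 lies right of the upper threshold in each organ, and 8 genes lie left of the lower threshold in adipose tissue.

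Over all genes, 4.27% were higher and 3.88% lower in the BF ileum, where the members had 21.9% higher and 3.13% lower. In the liver the shares over all genes were 6.11% higher and 5.97% lower, and the members had 6.25% in each direction, so the members' shares in the liver lay near those of all genes. In adipose tissue 6.67% of all genes were higher and 6.16% lower, against 3.13% and 25.0% of the members. The 32 members had a median log2 difference of 0.07 (ileum), -0.01 (liver) and -0.07 (adipose tissue), beside 0.00, 0.00 and 0.01 over all genes. These medians lay near 0, as most members did not pass a threshold.

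Many members had low signal. On either array of the organ, 17 members reached a log2 value of 5 in the ileum, 7 did so in the liver and 17 in adipose tissue. Of the 17 in the ileum, 4 were higher in the BF group (Cxcl13, Cxcl9, Cxcl10 and Cxcl5) and 0 were lower, where 3.81% and 2.24% of the 11317 genes at that level were higher and lower. Of the 7 in the liver, 1 was higher (Cxcl13) and 1 was lower (Cxcl14), beside 4.13% higher and 5.07% lower of 7766 genes. Of the 17 in adipose tissue, 1 was higher (Cxcl13) and 7 were lower (Ccl2, Ccl3, Ccl6, Ccl7, Ccl8, Ccl9 and Cxcl10), beside 7.49% higher and 8.51% lower of 10280 genes. A gene can reach that level through 1 array alone, the one on which it is higher. In the ileum Cxcl10 (5.05 in the BF and 4.48 in the control group) and Cxcl5 (5.03 and 4.30) did so. In the liver Cxcl13 (6.15 and 4.80) and Cxcl14 (4.61 and 5.55) did so, and in adipose tissue Ccl3 (4.32 and 5.55) and Cxcl10 (4.68 and 5.15). These counts thus depend in part on the differences they count, and they are not counts of all members. Over the 3 organs, 17 members stayed between the thresholds in each, 10 passed in 1 organ, 4 in 2 organs (Ccl2, Ccl3, Cxcl10 and Cxcl3) and 1 in 3 organs.

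**Figure D2:**
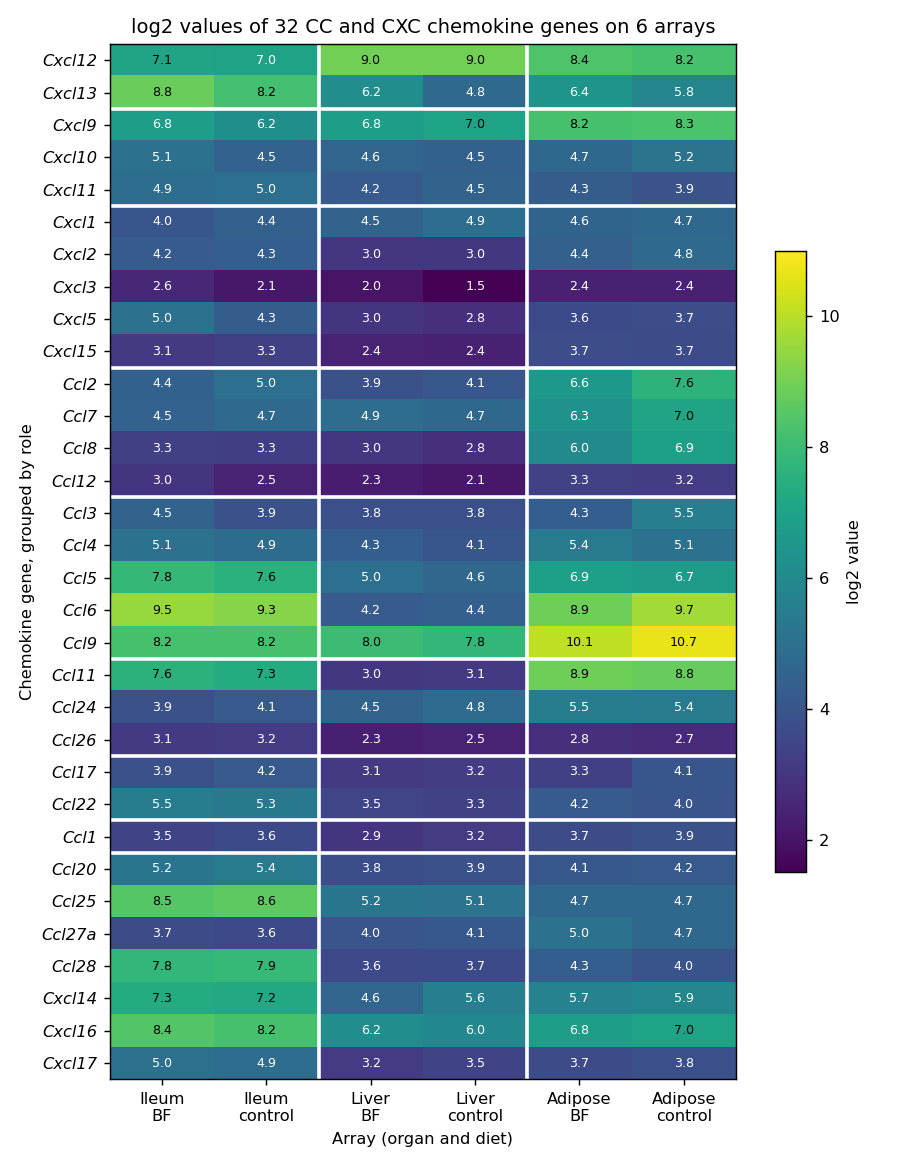
Log2 value of the 32 chemokine genes (rows, grouped by role) on the 6 arrays (columns, BF left of control in each organ), with each value printed in its cell. Rows are to be read across, since different probe sets are not on a common scale. Ccl25 and Ccl28 are bright on the ileum arrays, and Ccl2, Ccl7 and Ccl8 on the adipose arrays.

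The organs were set in order gene by gene. The mean of both arrays was highest in the ileum for 14 members, in the liver for 2 and in adipose tissue for 16. For 12 of the 14 and 12 of the 16, both arrays of the leading organ lay above all 4 arrays of the other organs, and for the rest the neighbouring organs overlapped. Those that led in the ileum by over 1 log2 unit on every array were Ccl20, Ccl22, Ccl25, Ccl28, Cxcl13, Cxcl14, Cxcl16 and Cxcl17, most of them known as chemokines of epithelia and mucosal lymphoid tissue. Those that led in adipose tissue by as much were Ccl2, Ccl7, Ccl8, Ccl9, Ccl11 and Cxcl9. None led in the liver by that margin. The median of all genes was also lowest in the liver, at 3.87 on each array. It was 4.98 and 4.97 in the BF and control ileum, and 4.65 and 4.63 in the BF and control adipose tissue. How all genes divided between the organs was not counted, so this order is not shown to be particular to chemokines. Cxcl12, which holds stem cells and lymphocytes in place, had 8.99 in the BF and 8.97 in the control liver, 8.37 and 8.22 in the BF and control adipose tissue, and 7.05 and 6.97 in the BF and control ileum. These levels were all far above the array medians, and the diets differed in Cxcl12 by at most 0.15 log2.

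The DNA just upstream of the start site is shown for 4 members chosen after their values were seen: Cxcl13, called in all 3 organs, Cxcl10 and Ccl3, which lay on opposite sides in the ileum and adipose tissue, and Cxcl9, which is induced by interferon like Cxcl10. Each run is the 250 bases before the start site from RefSeq, build GRCm38.p6, written 5′ to 3′ on the strand of the gene. Cxcl13 lies on the plus strand at chr5:95956689-95956938. Cxcl9 at chr5:92328080-92328329, Cxcl10 at chr5:92348890-92349139 and Ccl3 at chr11:83649379-83649628 lie on the minus strand. Capitals mark matches, on either strand, to 3 short motifs: GGANNTTCC, a palindrome of the kind bound by NF-κB, TGANTCA of AP-1, and GAAANNGAA of the interferon response.
Cxcl13: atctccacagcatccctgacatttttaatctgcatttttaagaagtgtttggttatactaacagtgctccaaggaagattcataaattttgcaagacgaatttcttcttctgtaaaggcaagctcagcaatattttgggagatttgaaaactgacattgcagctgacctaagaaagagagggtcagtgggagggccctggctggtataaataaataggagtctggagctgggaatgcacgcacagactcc
Cxcl9: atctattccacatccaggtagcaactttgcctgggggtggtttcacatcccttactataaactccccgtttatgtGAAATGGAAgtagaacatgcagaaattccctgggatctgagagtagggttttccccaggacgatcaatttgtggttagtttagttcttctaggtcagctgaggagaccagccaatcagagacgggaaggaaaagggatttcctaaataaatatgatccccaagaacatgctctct
Cxcl10: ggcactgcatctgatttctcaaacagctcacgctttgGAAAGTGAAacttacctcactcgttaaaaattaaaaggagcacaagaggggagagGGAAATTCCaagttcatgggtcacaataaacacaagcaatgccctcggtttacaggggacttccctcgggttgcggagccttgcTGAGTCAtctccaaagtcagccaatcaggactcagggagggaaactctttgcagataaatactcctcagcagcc
Ccl3: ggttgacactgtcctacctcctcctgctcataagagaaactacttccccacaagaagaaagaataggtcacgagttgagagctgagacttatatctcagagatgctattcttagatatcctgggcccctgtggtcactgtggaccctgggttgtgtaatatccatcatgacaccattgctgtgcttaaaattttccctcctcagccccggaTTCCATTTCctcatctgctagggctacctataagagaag
Cxcl10 held all 3 motifs, with GGAAATTCC beginning 158 bases, TGAGTCA 74 bases and GAAAGTGAA 213 bases before the start site. Cxcl9 held GAAATGGAA and Ccl3 held TTCCATTTC, the interferon response letters on the other strand. Sequences of Ccl8, Ccl6, Ccl9, Ccl17 and Cxcl14, whose differences were of like size, are not shown. Of these, Ccl8, Ccl6 and Ccl17 held none of the 3 motifs. Cxcl13 also held none of the 3 in this window, which says only that these letters are not there. Sequences were available for 21 of 32 members. The NF-κB letters stood upstream of 6 of the 21 (Ccl1, Ccl12, Cxcl1, Cxcl2, Cxcl3 and Cxcl10), or 28.6%, beside 4.12% of 27025 genes. In the neutrophil ligands Cxcl1, Cxcl2 and Cxcl3 the same 9 letters, GGAATTTCC, began 70, 96 and 72 bases before the start. The AP-1 letters were found for 3 of 21 (Ccl9, Ccl27a and Cxcl10), or 14.3%, beside 7.82% of all genes, and the interferon letters for 5 of 21 (Ccl1, Ccl3, Cxcl9, Cxcl10 and Cxcl14), or 23.8%, beside 8.18%. A match is a description of the sequence and not a bound site. Of the 6 members with the NF-κB letters, Cxcl3, Cxcl10 and Ccl12 were higher in the BF ileum, while Cxcl1, Cxcl2 and Ccl1 had differences of -0.37, -0.14 and -0.17 there.

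Cxcl13, the B cell chemokine and ligand of CXCR5, was higher in the BF group in each organ. Its log2 value was 8.84 in the BF and 8.16 in the control ileum, a difference of 0.67 or 1.59 fold. In the liver it was 6.15 in the BF group and 4.80 in the control group, a difference of 1.35 or 2.55 fold, the largest difference of any member in any organ. In adipose tissue it was 6.41 in the BF and 5.82 in the control group, a difference of 0.59 or 1.51 fold. Among 22180 genes ordered by difference, Cxcl13 stood 8th from the top in the liver, 125th in the ileum and 372nd in adipose tissue. Each of the 3 differences lay outside the central 95% of genes of like mean signal, which was -0.25 to 0.35 for the ileum, -0.50 to 0.48 for the liver and -0.59 to 0.54 for adipose tissue. Such a range describes genes and not mice.

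Of 7 B cell markers, 4 were higher and 0 lower in the BF ileum (Ms4a1, Cd79a, Cd79b and Cr2), with a median of 0.47 and a range of 5.27 to 8.81 on the BF and 5.04 to 8.20 on the control array. Of 7 genes of lymphoid stroma, 4 were higher and 0 lower there (Mfge8, Fcamr, Clu and Il7), with a median of 0.42 and a range of 4.28 to 8.88 on the BF and 3.86 to 8.46 on the control array. Madcam1, Pdpn and Tnfsf11 of that list had ileum differences of 0.15, 0.03 and 0.00. Mfge8 and Clu are not particular to lymphoid stroma on these arrays. Mfge8 had 10.51 and 10.60 in the BF and control adipose tissue, and Clu had 10.49 and 10.53 in the BF and control liver. Cxcr5, the receptor of CXCL13, had 6.09 in the BF and 5.76 in the control ileum, which is between the thresholds, and 4.35 and 3.84 in the BF and control adipose tissue, which is past the upper one. In the liver none of the 7 B cell markers reached a log2 value of 5 and none was called, and Cxcr5 had 3.62 on both arrays. The part of these cells in the Cxcl13 results was not tested. In RNA of whole tissue, more cells of a type and more RNA per cell cannot be told apart.

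Cxcl12, the other homing chemokine that could be read, had differences of 0.09, 0.02 and 0.15 in the ileum, liver and adipose tissue. Ccl19 and the Ccl21 genes, which guide cells to lymph nodes through CCR7, lie on probe sets that carry several symbols and were not analysed here. Their receptor gene Ccr7 was lower in the BF ileum (5.04 in the BF and 5.46 in the control group) and higher in the BF liver (3.92 in the BF and 3.29 in the control group, both low).

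**Figure D3:**
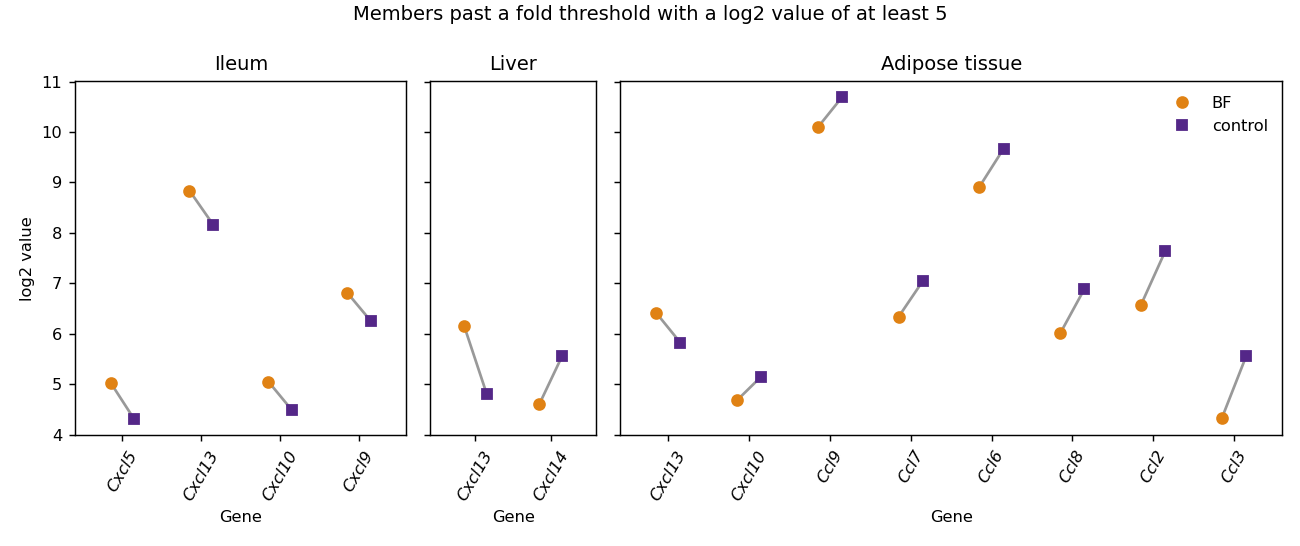
Log2 values on the BF (orange circles) and control (purple squares) arrays for the members past a threshold with a log2 value of at least 5 on either array, by organ. Each point is 1 pool of 10 mice. Cxcl13 is higher on the BF array in each panel, and the other 7 genes of the adipose panel are lower on it.

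The ligands of CXCR3, which are induced by interferon and draw T cells and natural killer cells, were partly higher in the BF ileum. Cxcl9 had 6.81 in the BF and 6.25 in the control ileum, or 1.48 fold. Cxcl10 had 5.05 in the BF and 4.48 in the control ileum, a difference of 0.57, outside the central 95% of genes of like signal (-0.48 to 0.51). Cxcl11, which RefSeq lists as a transcribed pseudogene in this build, had 4.92 in the BF and 4.97 in the control ileum. So 2 of 3 were higher, by 0.56 and 0.57 log2. Of 7 markers of natural killer and cytotoxic cells, 3 were higher and 0 lower in the BF ileum (Gzma, Gzmb and Nkg7), with a median of 0.37 and a range of 3.37 to 6.93 on the BF and 3.52 to 6.50 on the control array. Of 8 T cell markers, 3 were higher (Cd3e, Cd4 and Cd2) and 0 passed the lower threshold, with a median of 0.24. Cd3d, Cd5 and Cd28 lay below 0, with differences of -0.14, -0.11 and -0.05. The T cell markers had a range of 4.36 to 7.20 on the BF and 4.38 to 6.75 on the control array. Their part in the Cxcl9 and Cxcl10 results was not tested. The receptor gene Cxcr3 had 5.27 in the BF and 4.91 in the control ileum, just inside the threshold. The interferon gene Ifng was at 3.37 on both ileum arrays, a low level.

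In adipose tissue 1 of these 3 ligands was called, and it was lower. Cxcl10 had 4.68 in the BF and 5.15 in the control group, or 1.39 fold lower. This difference of -0.47 lay inside the central 95% of adipose genes of like signal (-0.63 to 0.59). Cxcl9 had 8.22 in the BF and 8.31 in the control group, and Cxcl11 had 4.29 and 3.94 in the BF and control groups, so neither was called. Irf1, an interferon-induced transcription factor, was higher in BF adipose tissue, with 6.54 in the BF and 6.08 in the control group. In the liver Cxcl9 had 6.78 in the BF and 7.02 in the control group, and Cxcl10 had 4.60 and 4.47 in the BF and control groups, both between the thresholds.

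The ligands of CXCR2, which draw neutrophils, mostly had low signal, though Cxcl1 lay above the median of all genes (3.87) on both liver arrays. Among the 5 of them, only Cxcl5 reached a log2 value of 5, and only in the BF ileum, with 5.03 in the BF and 4.30 in the control group, a difference of 0.73. It had 2.95 and 2.82 in the BF and control liver and 3.62 and 3.73 in the BF and control adipose tissue. The ileum value was the largest positive difference of a member there and the 90th of 22180 genes. Cxcl3 was higher in the BF ileum (2.61 in the BF and 2.11 in the control group) and the BF liver (1.99 in the BF and 1.52 in the control group), at values near the bottom of the arrays. Cxcl1 went the other way, with 4.04 in the BF and 4.41 in the control ileum, just inside the threshold, and 4.53 in the BF and 4.93 in the control liver, just outside it. The liver differences of Cxcl1 and Cxcl3 lay inside the central 95% of genes of like signal, and that of Cxcl1 fell short of the threshold after quantile normalization (-0.36 over 6 arrays, -0.37 within the liver). Cxcl2 had differences of -0.14, -0.02 and -0.37 and Cxcl15, known from the lung, -0.18, 0.03 and 0.04 in the ileum, liver and adipose tissue. Of 9 neutrophil markers, none reached 5 in the ileum or the liver. Ly6g was the 1 marker called in the ileum, and it was lower in the BF group, with 3.03 in the BF and 3.44 in the control group. S100a9 was the 1 called in the liver, lower in the BF group, with 2.06 in the BF and 2.75 in the control group. S100a8 was the 1 called in adipose tissue, also lower in the BF group, with 5.08 in the BF and 5.83 in the control group. Il1b, a cytokine that induces these ligands, was higher in the BF ileum, with 5.78 in the BF and 5.12 in the control group.

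The monocyte chemoattractants, ligands of CCR2 among other receptors, were lower in BF adipose tissue in 3 of 4 cases. Ccl2 had 6.57 in the BF and 7.64 in the control group, a difference of -1.07 or 2.09 fold lower. Ccl8 had 6.01 in the BF and 6.89 in the control group, or 1.84 fold lower. Ccl7 had 6.34 in the BF and 7.05 in the control group, or 1.64 fold lower. The remaining one, Ccl12, was low with 3.34 in the BF and 3.22 in the control group. Ccl2, Ccl8 and Ccl7 stood 116th, 174th and 298th from the bottom of 22180 genes, and each lay outside the central 95% of genes of like signal, which ran from -0.59 to 0.54. Ccr2, the receptor of CCL2, was also lower, with 7.07 in the BF and 7.68 in the control group. Apart from the arrays, the study measured mRNA by quantitative PCR, given as mean and standard deviation. There it reported significantly lower MCP-1, the name it uses for the product of Ccl2, in BF adipose tissue.

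In the other organs this group was faint. No member of it reached a log2 value of 5 in the ileum or the liver. Ccl2 had 4.44 in the BF and 4.97 in the control ileum, a difference of -0.54, and it was the only member called lower there. Of 8 adipocyte markers, 4 were also lower and 0 higher in the BF ileum (Adipoq, Lep, Fabp4 and Plin1), with a median of -0.32 and a range of 3.71 to 8.82 on the BF and 4.56 to 9.07 on the control array. Adipoq, an adipocyte hormone, had 4.71 in the BF and 5.76 in the control ileum. Their part in the ileum results was not tested. Ccl12 was called higher in the BF ileum with 2.95 in the BF and 2.46 in the control group. In the liver Ccl2 had 3.87 in the BF and 4.07 in the control group, Ccl7 had 4.89 and 4.72, and Ccl8 had 3.02 and 2.78 in the BF and control groups. In the ileum Ccl7 had 4.50 in the BF and 4.75 in the control group, and Ccl8 had 3.31 and 3.26 in the BF and control groups.

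The other inflammatory CC chemokines, which draw monocytes, macrophages and T cells, divided in adipose tissue. Ccl3 had 4.32 in the BF and 5.55 in the control group, a difference of -1.22, the largest of any member in adipose tissue and the 89th from the bottom of all genes. Ccl6 and Ccl9 are rodent chemokines that bind CCR1 and are made by myeloid cells. Ccl6 had 8.91 in the BF and 9.67 in the control group, or 1.69 fold lower. Ccl9 had 10.09 in the BF and 10.69 in the control group, or 1.52 fold lower, a difference of -0.60 that lay inside the central 95% of genes of like signal (-0.61 to 0.55). Ccl4 and Ccl5 lay on the other side of 0, with 5.37 and 5.06 for Ccl4 and 6.86 and 6.70 for Ccl5 in the BF and control groups, and neither was called. Ccr1 was lower in BF adipose tissue, with 3.74 in the BF and 4.41 in the control group.

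In the ileum, 4 of the same 5 genes lay above 0 and 1 was called. Ccl3 had 4.52 in the BF and 3.87 in the control group, a difference of 0.65 that passed the threshold. Ccl6 had 9.55 in the BF and 9.27 in the control group, Ccl5 had 7.81 and 7.56, and Ccl4 had 5.06 and 4.86 in the BF and control groups, each between the thresholds. Ccl9 had 8.23 in the BF and 8.24 in the control group. In the liver none of the 5 was called, Ccl5 coming nearest with 4.99 in the BF and 4.64 in the control group, and Ccl3 was at 3.83 on both arrays. Ccl9 had 8.03 in the BF and 7.80 in the control liver, and Ccl6 had 4.22 and 4.41 in the BF and control liver. Ccl3 and Cxcl10 were thus the 2 members called higher in one organ and lower in another, and the difference between organs was not tested.

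Markers of macrophages moved with the adipose results. Of 12 macrophage genes, 10 were lower and 0 higher in BF adipose tissue, with a median of -0.79 and a range of 5.32 to 10.55 on the BF array and 6.31 to 10.97 on the control array. Adgre1, which codes for a surface protein of mature macrophages, had 7.63 in the BF and 8.76 in the control group, and Cd68 had 10.02 and 10.88 in the BF and control groups. Of 7 genes of lipid-associated macrophages, 6 were lower, with a median of -1.06 and a range of 7.15 to 12.19 on the BF and 7.95 to 12.13 on the control array. Lpl, which set the upper end on both arrays, was not called, with a difference of 0.06. Of 5 monocyte markers 3 were lower (Ccr2, Plac8 and Chil3), with a range of 2.68 to 7.07 on the BF and 4.05 to 7.68 on the control array. Endothelial markers went the other way, with 5 of 7 higher, 0 lower, a median of 0.67 and a range of 6.60 to 10.11 on the BF and 6.24 to 9.52 on the control array. Tlr2, a receptor for microbial products on myeloid cells, had 4.98 in the BF and 5.62 in the control group. The part of the macrophage content in the chemokine results was not tested. In the ileum 3 of the 12 macrophage genes were higher and 0 lower (Adgre1, Clec7a and C1qa), and in the liver 1 was higher (Lyz2).

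**Figure D4:**
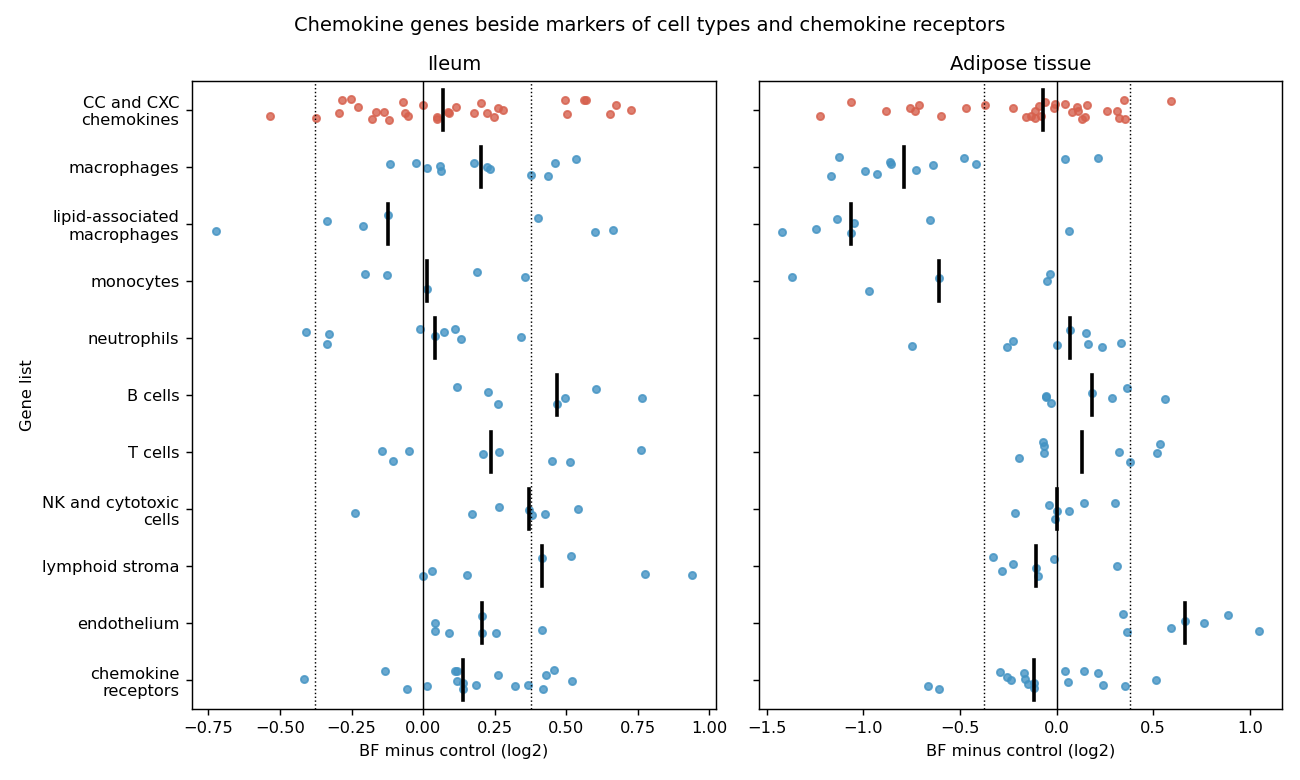
Log2 difference between the BF and control arrays for each gene of the chemokine list (red), of marker lists and of the chemokine receptors (blue) in the ileum and adipose tissue, with the median as a black bar and the thresholds as dotted lines. The 2 panels have different ranges. The macrophage medians lie at -0.79 and -1.06 in adipose tissue, and the B cell median lies at 0.47 in the ileum.

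The eotaxins, ligands of CCR3 that draw eosinophils, showed no call in any organ. Ccl11 had 8.89 in the BF and 8.81 in the control adipose tissue and 7.60 and 7.34 in the BF and control ileum, but only 3.03 and 3.12 in the BF and control liver. Ccl24 had 5.52 in the BF and 5.38 in the control adipose tissue, and its differences in the ileum and liver were -0.28 and -0.31. Ccl26 reached at most 3.17 on any array. The adipose eotaxins thus differed by at most 0.13, on the same arrays on which the monocyte ligands Ccl2, Ccl7 and Ccl8 had differences of -1.07, -0.71 and -0.88. Ccr3 was higher in the BF ileum at a low level, with 2.69 in the BF and 2.27 in the control group.

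The CCR4 ligands draw regulatory and helper T cells. Ccl17 had 3.32 in the BF and 4.05 in the control adipose tissue, a difference of -0.74 at a signal below the array median. Ccl22 had 5.51 in the BF and 5.33 in the control ileum and was called nowhere. Ccl1, the ligand of CCR8, had differences of -0.17, -0.24 and -0.16 in the ileum, liver and adipose tissue at values of at most 3.87.

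The chemokines of epithelia and barriers differed by at most 0.23 log2 in the ileum, the organ in which most of them were brightest. Ccl25, which brings CCR9-bearing lymphocytes to the small intestine, had 8.51 in the BF and 8.63 in the control ileum. Ccl28, a mucosal ligand of CCR10, had 7.81 in the BF and 7.87 in the control ileum. Ccl20, which attracts CCR6-bearing cells to follicles, had 5.18 and 5.41, Cxcl16, the membrane-bound ligand of CXCR6, had 8.45 and 8.23, and Cxcl17 had 5.02 and 4.90 in the BF and control ileum. Cxcl16 had 6.17 in the BF and 5.95 in the control liver, and 6.79 in the BF and 7.01 in the control adipose tissue. None of the 7 in this group was called in the ileum or in adipose tissue, and their ileum differences ran from -0.23 to 0.22. The receptor genes Ccr9 and Ccr10 were not called in the ileum, while Ccr6 was higher, with 4.92 in the BF and 4.40 in the control group.

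The exception was Cxcl14 in the liver. This chemokine, known from epithelia, had 4.61 in the BF and 5.55 in the control liver, a difference of -0.94 or 1.92 fold lower, the 48th from the bottom of all genes. It lay outside the central 95% of genes of like signal (-0.50 to 0.48). In the ileum it had 7.33 in the BF and 7.24 in the control group, and in adipose tissue 5.72 and 5.85 in the BF and control groups. The liver was thus the only organ in which Cxcl14 was called. The 8 hepatocyte markers had a median of 0.02 in the liver with none called.

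Ccl27a had 2 probe sets. The brighter one gave 0.05, -0.10 and 0.32 and the other gave -0.19, 0.25 and 0.43 in the ileum, liver and adipose tissue, so that only the second passed a threshold, in adipose tissue.

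Of 17 chemokine receptor genes analysed, 4 were higher (Ccr1, Ccr3, Ccr6 and Cxcr4) and 1 lower (Ccr7) in the BF ileum, with a median of 0.14. In the liver 1 was higher (Ccr7) and 0 lower, with a median of 0.00. In adipose tissue 1 was higher (Cxcr5) and 2 lower (Ccr1 and Ccr2), with a median of -0.12. Cxcr4, the receptor of CXCL12, had 6.77 in the BF and 6.31 in the control ileum. Ccr1 was the 1 receptor gene that was higher in the BF ileum and lower in BF adipose tissue, as was its ligand gene Ccl3. Ccr1 lay below the median of all genes on each of these arrays, and Ccl3 did so on all but the control adipose array. Ccl6 and Ccl9, whose products also bind CCR1, were lower in BF adipose tissue but not called in the ileum. The 5 atypical receptors are not known to signal through G proteins. Among them, Ccrl2 was higher in the BF ileum (5.29 in the BF and 4.72 in the control group). Ackr1, carried by venous endothelium, was higher in BF adipose tissue (4.80 in the BF and 4.13 in the control group). Of 4 chemokines outside the CC and CXC naming rule, Pf4 and Ppbp, chemokines of platelets, were lower in BF adipose tissue. Pf4 had 6.54 in the BF and 7.04 in the control group, and Ppbp had 3.92 and 4.51 in the BF and control groups.

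Of 19 cytokines and signalling genes that induce chemokines, 3 were higher and 0 lower in the BF ileum. They were Myd88, the adaptor of Toll-like and IL-1 receptors (8.38 in the BF and 7.67 in the control group), Il1b and Ltb, a lymphotoxin known to induce Cxcl13 in stroma (6.52 in the BF and 5.98 in the control group). In the liver 3 were lower (Lta, Myd88 and Nfkb2) and 0 higher. Myd88 had 5.86 in the BF and 6.34 in the control liver, the opposite side from the ileum. In adipose tissue 1 was higher (Irf1) and 1 lower (Tlr2). Tnf lay between the thresholds in each organ, with differences of 0.14, 0.13 and -0.20 in the ileum, liver and adipose tissue.

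The members lie mostly in clusters on a few chromosomes. RefSeq places 12 members on chromosome 11 in the order Cxcl16, Ccl2, Ccl7, Ccl11, Ccl12, Ccl8, Ccl1, Ccl5, Ccl9, Ccl6, Ccl3 and Ccl4. Of these 12, 6 were lower in BF adipose tissue (Ccl2, Ccl7, Ccl8, Ccl9, Ccl6 and Ccl3), beside 8 of all 32 members. Ccl11, Ccl12, Ccl5 and Ccl4, which lie among them, had differences above 0. On chromosome 5, 11 members lie in the order Cxcl5, Cxcl3, Cxcl15, Cxcl1, Cxcl2, Cxcl9, Cxcl10, Cxcl11, Cxcl13, Ccl26 and Ccl24. Of these 11, 5 were higher in the BF ileum (Cxcl5, Cxcl3, Cxcl9, Cxcl10 and Cxcl13), beside 7 of all 32 members, and the other 6 had differences below 0. Neither cluster thus lay on 1 side. Neighbouring genes of these clusters are similar in sequence, and how far their probes take up each other's RNA was not measured.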

How the data were processed

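Total RNA of ileum, liver and epididymal adipose tissue was pooled from 10 mice per diet group, and each of the 6 pools was hybridized to 1 array. The authors made the deposited log2 values in Affymetrix Expression Console 1.3, named in the submitters' processing notes, by the default robust multichip procedure, which corrects background, normalizes arrays to each other and summarizes probes. Which arrays were normalized together is not given in the sources used here. This processing compresses differences at low signal.

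Of 41345 probe sets, 23521 carry exactly 1 symbol in the platform annotation and stand for 22180 genes. Another 33 probe sets carry a chemokine symbol beside others, and 6 chemokine symbols found only there were not analysed. Differences were taken as BF minus control within each organ, with thresholds of 1.3 and 0.77 fold and no filter on signal. No test was possible with 1 array per group, and arrays were matched to groups by title, description and dietary fiber. Members past a threshold that reached a log2 value of 5, and those of each role, were named. Genes of other lists at lower values, or beyond 4 a list, were chosen with their values in view. The members and gene lists were chosen with earlier results of these data known, and lists were written from general knowledge. Alternatives were median and lowess (span 0.3) centring, quantile normalization, a level of 5 or 6, a 1.5 fold threshold and the mean of probe sets. The procedure was tested on simulated data, with changes of 1 log2 unit planted in genes with a control value of at least 6. That test does not cover members of lower signal or smaller differences. Upstream sequences and chromosome order came from RefSeq, GRCm38.p6. The number of arrays limits the precision. Python 3.11.15, pandas 2.3.3, numpy 2.4.6, statsmodels 0.14.6 and matplotlib 3.10.9 were used.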

Additional observations from a re-analysis of the deposited data

Results flagged for a closer look

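Ccl3 and Cxcl10 lay past the thresholds on opposite sides in 2 organs. Ccl3 had a log2 difference of 0.65 in the ileum and of -1.22 in adipose tissue, and Cxcl10 had 0.57 in the ileum and -0.47 in adipose tissue. In the liver they had 0.00 and 0.13. Ccl3 lay below the median of all genes on both ileum arrays (4.52 in the BF and 3.87 in the control group) and on the BF adipose array (4.32). Cxcl10 lay below it on the control ileum array (4.48). The adipose difference of Cxcl10 lay inside the central 95% of genes of like signal (-0.63 to 0.59). With 1 array per group the difference between the organs was not tested.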

How the results depend on the processing

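The 21 differences of members past a threshold were recomputed under median centring, lowess centring, quantile normalization of the 6 arrays or within the organ, and the mean of probe sets. Some of these settings could not move a value. The mean of probe sets left all 21 as they were, since Ccl27a, the 1 member with several probe sets, was not among them. Median centring left those of the ileum and liver as they were, since the median of all genes was 0.00 there. Of the 105 recomputed values, with these included, 103 stayed past the threshold and 0 reversed. The 2 that fell short were those of Cxcl1 in the liver, at -0.36 after quantile normalization of the 6 arrays and -0.37 within the organ, in place of -0.39. Counts of members moved more. In the ileum, the 7 higher members became 4 at a log2 value of at least 5, 2 at 6 and 3 at 1.5 fold, and the 1 lower member became 0 at each of these settings. In the liver, the 2 higher members became 1 at levels of 5 and 6 and at 1.5 fold. The 2 lower members there became 1 at a level of 5, 0 at 6, 1 under both quantile normalizations and 1 at 1.5 fold. In adipose tissue, the 8 lower members became 9 under median centring, lowess centring and quantile normalization within the organ. They became 7 at a level of 5 and at 1.5 fold, and 5 at a level of 6. The median difference was 0.20 at a level of 5 and 0.22 at 6 in the ileum, 0.21 at 6 in the liver over 5 members, and -0.23 at 6 in adipose tissue over 11 members. The level settings keep fewer members. Each scaling moved the median of all genes by at most 0.011. No sample could be left out, since each group is 1 array. No paired analysis was possible because each group holds 1 sample and no test was run.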

Other observations

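The genes most like 4 chemokine genes across the 6 arrays were sought by Pearson's r, as a description without a test, since organ sets most of the variation and pairs of arrays share an organ. Ccl3 was most like Atp13a4 (r = 0.989) and Lcp1 (r = 0.982), which codes for an actin-bundling protein of leukocytes, then Mir449a (r = 0.979), and 40 genes had an r over 0.95 with it. Lcp1 had 8.58 in the BF and 8.09 in the control ileum, 8.19 and 8.13 in the BF and control liver, and 8.67 and 9.36 in the BF and control adipose tissue. Ccl2 was most like Clec4b1 (r = 0.999), a lectin receptor gene of myeloid cells, which had 3.68 in the BF and 4.52 in the control adipose tissue, and 634 genes had an r over 0.95 with it. Mrnip and Ccer1 followed (r = 0.998 each). Cxcl13 was most like Snai1 (r = 0.997), Gm4129 and Pnpla1 (r = 0.996 each), and Cxcl14 was most like Stambp (r = 0.999), Tbl3 (r = 0.999) and Olfr237 (r = 0.997), among 614 and 1413 genes over 0.95, so that neither stood out.

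In the liver, Marco, a scavenger receptor of Kupffer cells, had 6.09 in the BF and 4.92 in the control group on the arrays on which Cxcl13 was higher. It was the 1 of 6 Kupffer cell genes called, with a median of 0.22 over the 6.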
